A study of Mus musculus with 6 samples.

Results

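The 9 genes described here encode the output and accessory-loop transcription factors of the circadian clock: Dbp, Tef, Hlf, Nfil3, Nr1d1, Nr1d2, Rora, Bhlhe40 and Bhlhe41. They were taken by symbol from a deposited table of 47729 mouse genes, and all 9 were found and passed the filter on low counts that kept 17365 genes. The genes were chosen with their difference between the 2 groups of this study already known. Their levels in those groups and the differences between them are therefore given as a description: no p-value is given for a member's difference, and counts of members past a threshold stand beside the share of all genes, with nothing read from them.

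The clock of a cell is a feedback loop in which BMAL1 (gene Arntl), paired with CLOCK or NPAS2, activates genes through E-box sequences, and the PER and CRY proteins shut that activation off. A further loop runs through the nuclear receptors REV-ERB (Nr1d1, Nr1d2), which repress Arntl and its partners, and ROR (Rora), which activates them at the same DNA elements. The clock passes its rhythm on through proline and acidic amino acid rich leucine zipper (PAR-bZIP) factors, which activate D-box elements, against NFIL3, a repressor at the same elements, while DEC proteins (Bhlhe40, Bhlhe41) compete at E-boxes. In heart muscle this network is known to time genes of metabolism and of ion channels, so the levels of its output genes depend strongly on the hour at which tissue is taken.

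RNA was sequenced from mouse left ventricular tissue 9 days after transverse aortic constriction (TAC), which narrows the aorta and puts the left ventricle under pressure load. There were 3 libraries labelled control and 3 labelled Treg, and the series title speaks of regulatory T cells induced in vitro, deprived of CD28 and given systemically. All 6 libraries are from operated mice. The labels used here do not give what the controls received, the strain, age or sex, the hour of tissue collection, or whether each library is 1 animal, so the p-values below measure the spread between these libraries, which may be technical.

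Library totals lay between 28937253 and 29979080 estimated counts. The 8 cardiomyocyte markers summed to 33620 to 55000 CPM (counts scaled to an equal library total), lowest in control replicate 3. Of these, Actc1, Myl2 and Pln lay higher in every Treg library than in every control, where 13.7% of all tested genes did. The others overlapped, with log2 fold changes of Treg over control of 0.19 (Myh6), 0.20 (Tnni3), 0.33 (Myl3), −0.28 (Tnnt2) and −0.19 (Ryr2). Among the other tested markers, smooth muscle Myh11 and fibroblast Dcn were separated in the same direction and T cell Cd3e in the other. The smooth muscle genes Tagln, Acta2 and Cnn1 overlapped, at −0.15, −0.001 and −1.49. The part of these markers in the results was not tested. Treg replicate 3 alone held the atrial light chain Myl7 in quantity (1202 counts, against 1 to 6 elsewhere). Control replicate 3 stood apart: its correlation with the others over log2 CPM of all tested genes was 0.931 to 0.954, while each of the remaining 5 reached 0.978 to 0.990 with its closest library. It held the highest level of the 6 for 33.3% of all tested genes and the lowest for 31.9%. In that library the 6 neutrophil markers summed to 35.5 CPM against 6.60 to 18.2 elsewhere, the 7 T cell markers to 17.7 against 3.10 to 5.16, and the 5 erythroid markers to 292 against 1073 to 2849. The neutrophil sum there came mostly from S100a8 (11.95 CPM) and S100a9 (13.09 CPM). Cxcr2 and Retnlg were also highest there, while Csf3r was higher in Treg replicates 1 and 2 and Ly6g was at 0 counts. The T cell sum came mostly from Cd3e (465 counts against 12 to 82 elsewhere), while Cd3g and Trac were at 0 counts and Cd8a was lowest in that library. The part of these in the results was not tested. In bulk tissue fewer cells of a type and less RNA per cell cannot be told apart. Each member's difference below is given with and without control replicate 3.

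The promoters of the members show where the letters of clock elements occur close to their starts. Of the 9 genes, 8 had RefSeq start windows on GRCm38.p6, with 9 windows in all since Tef has more than 1 start; Bhlhe40 had none. The 250 bases upstream of each start were searched on both strands for the E-box CACGTG, the E-box variant CACGTT, the D-box TTANGTAA and the nuclear receptor core AGGTCA. The stretches below hold a match and lie outside the gene's annotated exons; they are written 5′ to 3′ on the gene's strand, with the match in capitals. Tef is shown for the internal start, and Nr1d1 holds the reverse complement of CACGTT.
Tef, chr15:81811164-81811413, plus strand: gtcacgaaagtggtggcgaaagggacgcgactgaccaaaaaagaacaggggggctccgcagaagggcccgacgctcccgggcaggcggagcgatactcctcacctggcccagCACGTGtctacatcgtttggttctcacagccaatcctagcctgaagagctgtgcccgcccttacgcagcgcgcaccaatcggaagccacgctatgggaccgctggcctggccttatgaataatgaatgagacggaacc
Bhlhe41, chr6:145865559-145865670, minus strand: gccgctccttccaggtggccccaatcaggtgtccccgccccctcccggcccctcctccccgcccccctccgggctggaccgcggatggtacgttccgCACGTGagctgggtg
Nr1d1, chr11:98775378-98775627, minus strand: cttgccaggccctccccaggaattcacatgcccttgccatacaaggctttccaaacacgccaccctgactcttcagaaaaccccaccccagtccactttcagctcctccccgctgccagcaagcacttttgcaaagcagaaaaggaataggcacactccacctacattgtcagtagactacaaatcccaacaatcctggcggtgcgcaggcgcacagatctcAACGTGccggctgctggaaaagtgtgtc
Nr1d2, chr14:18239128-18239356, minus strand: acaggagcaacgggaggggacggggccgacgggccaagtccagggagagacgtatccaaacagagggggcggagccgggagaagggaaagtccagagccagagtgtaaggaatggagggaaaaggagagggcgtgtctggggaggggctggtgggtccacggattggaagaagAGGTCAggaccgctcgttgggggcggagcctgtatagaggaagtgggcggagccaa

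The E-box CACGTG began 138 bases upstream of the Tef start shown, 127 bases upstream of the other Tef start (inside an annotated exon) and 153 bases upstream of the Bhlhe41 start. This word is present in 6.02% of all 32851 windows of this length. The variant CACGTT, found 28 bases upstream of the Nr1d1 start, is present in 3.85% of windows. The core AGGTCA was found 77 bases upstream of the Nr1d2 start and, inside an annotated exon, 12 bases upstream of the Nfil3 start, and is present in 14.02% of windows. No D-box match, which 2.06% of windows hold, was found in any member, and the windows of Dbp, Hlf and Rora held none of the 4 words. Distances are counted from the RefSeq starts, which for the genes with a match differ from the ends of the gene coordinates given below. These are matches of letters in a short window and not measured binding sites.

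All PAR-bZIP activators and Nr1d2 lay higher in every Treg library than in every control library, while Nfil3, Nr1d1, Rora, Bhlhe40 and Bhlhe41 overlapped between the groups. Thus 4 of 9 members were separated with Treg above control, where 13.7% of all tested genes were, and 0 of 9 with Treg below control, where 11.7% of all tested genes were. By edgeR's quasi-likelihood test with Benjamini-Hochberg adjustment at 0.05, 0 of 9 members were past the threshold, as were 0% of all tested genes. DESeq2 placed 4 of 9 past its threshold with Treg higher (Dbp, Tef, Hlf and Nr1d2), beside 1.93% of the 16673 genes it gave an adjusted p. Without control replicate 3 edgeR placed 1 of 9 there (Hlf), beside 0.674% of all genes it tested. The median log2 fold change of the 9 was 0.06 and that of all tested genes −0.02. Since the members were chosen on this contrast, nothing is read from these counts.

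**Figure D1:**
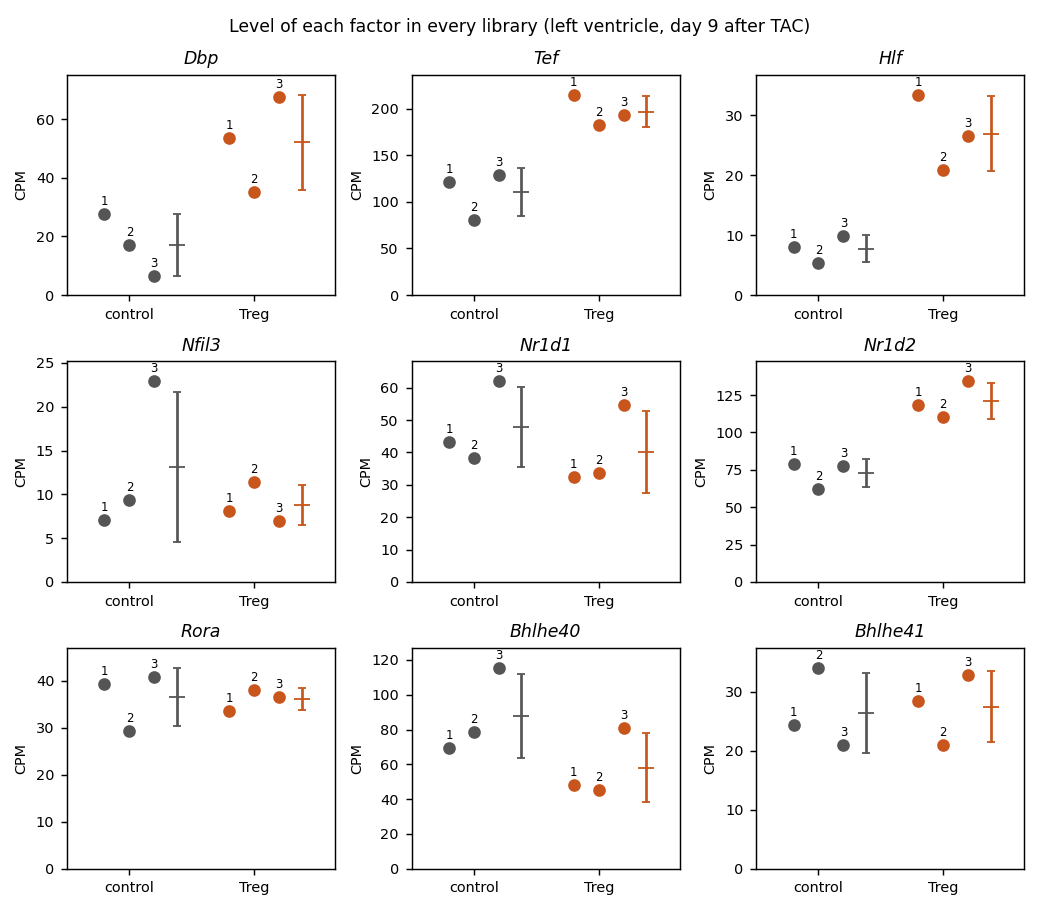
Level of each of the 9 genes in CPM (vertical axes, each from 0) in the control and Treg libraries (horizontal axes); points are libraries, numbered by replicate, and the bar beside them is mean ± SD (n = 3). Dbp, Tef, Hlf and Nr1d2 do not overlap between the groups, and for Nfil3 control replicate 3 lies at 22.9 CPM, above the range of 6.94 to 11.4 CPM in the other libraries.

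Dbp (chr7:45705088-45710203, plus strand) encodes the D-box binding activator that is among the most strongly cycling transcripts of most tissues. It stood at 27.7, 17.0 and 6.33 CPM in control replicates 1, 2 and 3 and at 53.6, 35.3 and 67.7 CPM in Treg replicates 1, 2 and 3. The lowest Treg library lay above the highest control, and the control libraries themselves were spread widely, with control replicate 3 lowest. The control mean was 17.0 ± 10.7 CPM and the Treg mean 52.2 ± 16.3 CPM (SD, n = 3 for all means below), a log2 fold change of 1.62 ± 0.49 (SE from edgeR, as below), or 3.07-fold. It was 1.22 when control replicate 3 was left out and 2.16 when control replicate 1 was, so these libraries move the value in opposite directions.

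Dbp's exons overlap those of Sphk2, a sphingosine kinase gene on the opposite strand, over 539 bases (18.0% of Dbp's exon length). The kit marks strand, but whether the counting used it is not stated in the labels. Sphk2 stood at 701, 753 and 488 estimated counts in the controls and 878, 753 and 1040 in the Treg libraries, lowest and highest in the same libraries as Dbp, and its part in Dbp's values was not tested.

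Tef (chr15:81802421-81826863, plus strand), the thyrotroph embryonic factor, another PAR-bZIP activator, had the highest median level of the 9. It stood at 122, 81.1 and 129 CPM in the controls and at 215, 183 and 194 CPM in the Treg libraries. The Treg libraries lay close together, and control replicate 2 was the lowest of all 6. The means were 111 ± 25.8 and 197 ± 16.7 CPM, a log2 fold change of 0.83 ± 0.20 (1.78-fold), with 0.96 without control replicate 3 and 0.65 without control replicate 2.

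Hlf (chr11:90336536-90390895, minus strand), hepatic leukemia factor, the remaining PAR-bZIP activator, had the largest fold change of the 9. It stood at 8.07, 5.36 and 9.80 CPM in the controls and at 33.5, 20.9 and 26.5 CPM in the Treg libraries. The lowest Treg library lay well above the highest control. The means were 7.74 ± 2.24 and 27.0 ± 6.29 CPM, a log2 fold change of 1.80 ± 0.27 (3.48-fold). Over the 6 omissions of 1 library this value stayed between 1.59 and 2.01, the latter without control replicate 3.

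Nfil3 (chr13:52967209-52981073, minus strand), also called E4BP4, is the repressor that competes with these activators for D-boxes, and is induced by cytokines as well as by the clock. It stood at 7.02, 9.33 and 22.9 CPM in the controls and at 8.08, 11.4 and 6.94 CPM in the Treg libraries. The groups overlapped, and only control replicate 3 lay outside the range of the rest. The means were 13.1 ± 8.57 and 8.79 ± 2.29 CPM, a log2 fold change of −0.57 ± 0.44. Without control replicate 3 the sign turned, to 0.10, so this library alone sets the direction.

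The activators and Nfil3 can be set against each other within a library, where sequencing depth cancels. The summed level of Dbp, Tef and Hlf per length, divided by that of Nfil3, was 7.49, 3.65 and 1.77 in the control libraries and 12.6, 6.80 and 14.9 in the Treg libraries. Treg replicate 2 therefore lay below control replicate 1, and the groups overlapped in this ratio. Levels per length are CPM divided by the joined exon length of all annotated transcripts in kilobases (RPKM). Tef made up the largest part of the sum in every library: its level per length was 1.09 to 1.97 times that of Dbp in 5 libraries and 7.74 times in control replicate 3.

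**Figure D2:**
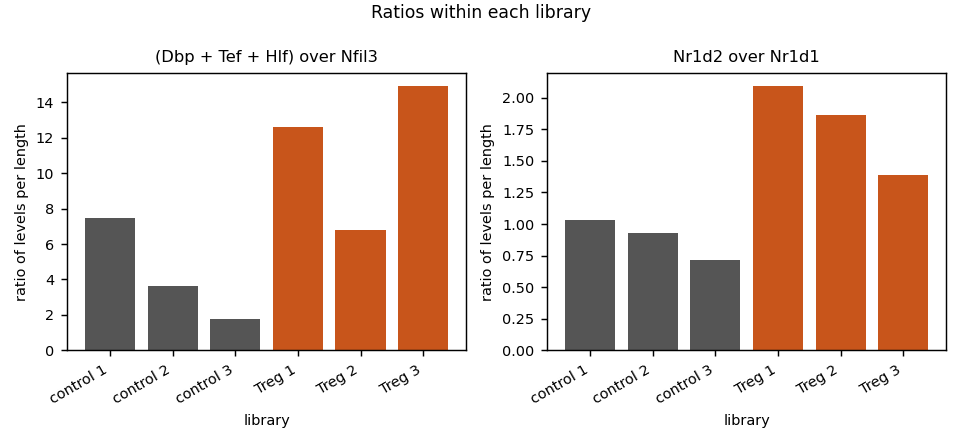
Ratios of levels per length (vertical axes, from 0) in each library (horizontal axes); grey bars are control libraries and orange bars Treg libraries. The left panel gives the 3 PAR-bZIP activators summed over Nfil3, with overlapping groups, and the right panel Nr1d2 over Nr1d1, where the Treg libraries at 1.39 to 2.09 lie above the controls at 0.714 to 1.03.

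The REV-ERB genes, whose products repress Arntl, differed from each other in pattern. Nr1d2 (chr14:18204054-18239127, minus strand), encoding REV-ERB beta, stood at 78.5, 62.2 and 77.8 CPM in the controls and at 119, 110 and 134 CPM in the Treg libraries. Both groups were tight, and they did not overlap. The means were 72.8 ± 9.22 and 121 ± 12.1 CPM, a log2 fold change of 0.73 ± 0.15 (1.66-fold), which stayed between 0.63 and 0.80 over the 6 omissions of 1 library and was 0.78 without control replicate 3.

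Nr1d1 (chr11:98767932-98775333, minus strand), encoding REV-ERB alpha, a strongly rhythmic repressor, stood at 43.3, 38.2 and 61.9 CPM in the controls and at 32.3, 33.6 and 54.8 CPM in the Treg libraries. Replicate 3 was the highest library of each group, and the groups overlapped. The means were 47.8 ± 12.5 and 40.2 ± 12.6 CPM, a log2 fold change of −0.25 ± 0.26 and of −0.02 without control replicate 3. The ratio of Nr1d2 to Nr1d1 per length was 1.03, 0.925 and 0.714 in the controls and 2.09, 1.86 and 1.39 in the Treg libraries, with no overlap between the groups. Nr1d1's exons overlap those of the thyroid hormone receptor gene Thra on the opposite strand over 263 bases (8.55%). Thra stood at 2249, 2217 and 2897 estimated counts in the controls and 2026, 2146 and 1961 in the Treg libraries. Like Nr1d1 it was highest in control replicate 3, but among the Treg libraries it was lowest in replicate 3, where Nr1d1 was highest. The part of Thra in Nr1d1's values was not tested.

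Rora (chr9:68653786-69388246, plus strand), encoding the ROR alpha activator that opposes REV-ERB at shared elements, was the member with the smallest difference. It stood at 39.3, 29.4 and 40.7 CPM in the controls and at 33.5, 38.1 and 36.6 CPM in the Treg libraries. The Treg values lay inside the control range. The means were 36.5 ± 6.19 and 36.1 ± 2.35 CPM, a log2 fold change of −0.02 ± 0.15, with 0.07 without control replicate 3. Rorb, another ROR gene, stood at 46, 41 and 10 counts in the controls and at 74, 50 and 87 counts in the Treg libraries.

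The DEC repressors compete with CLOCK and BMAL1 at E-boxes. Bhlhe40 (chr6:108660629-108666925, plus strand), encoding DEC1, which hypoxia and cytokines also induce, stood at 69.5, 78.4 and 115 CPM in the controls and at 48.3, 45.3 and 80.8 CPM in the Treg libraries. Treg replicates 1 and 2 lay below all controls, and Treg replicate 3 lay among them. The means were 87.7 ± 24.2 and 58.1 ± 19.7 CPM, a log2 fold change of −0.59 ± 0.28. It was −0.35 when control replicate 3 was left out and −0.90 when Treg replicate 3 was.

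Bhlhe41 (chr6:145858243-145865558, minus strand), encoding DEC2, stood at 24.3, 34.0 and 21.0 CPM in the controls and at 28.5, 20.9 and 32.9 CPM in the Treg libraries. The groups overlapped throughout. The means were 26.4 ± 6.73 and 27.4 ± 6.03 CPM, a log2 fold change of 0.06 ± 0.23, which turned to −0.09 without control replicate 3. Over 1280 exon bases (19.1%) Bhlhe41 overlaps Gm43909, a transcript model of unknown function, on the opposite strand. That transcript stood at 115, 184 and 116 estimated counts in the controls and at 139, 90.5 and 175 in the Treg libraries, highest and lowest in the same libraries as Bhlhe41, and its part in Bhlhe41's values was not tested.

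**Figure D3:**
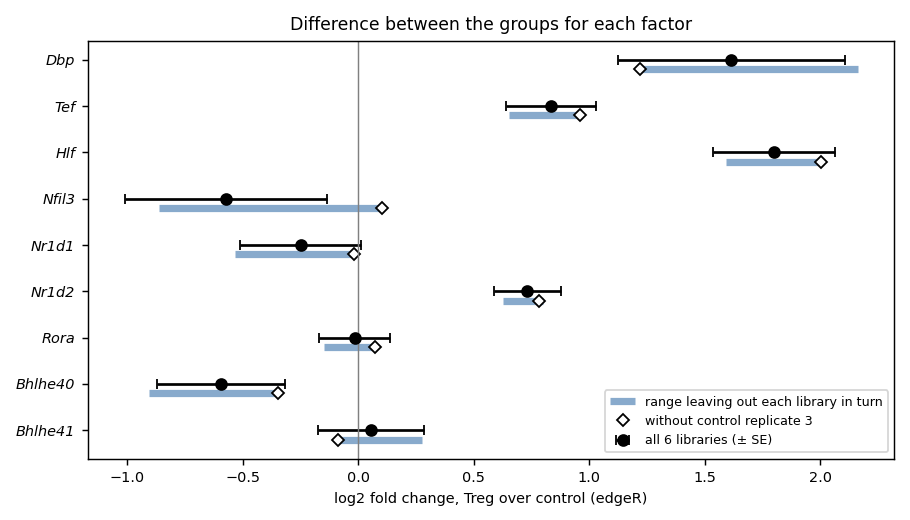
Log2 fold change of Treg over control (horizontal axis) for each of the 9 genes (vertical axis): filled circles with bars are all 6 libraries ± SE, blue bars the range when each library is left out in turn, and open diamonds the value without control replicate 3. Dbp, Tef, Hlf and Nr1d2 stay above 0 under every omission of 1 library, and Nfil3 moves from −0.57 to 0.10 without control replicate 3.

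The members also differed in how much they varied between libraries of 1 group. The SD of log2 CPM among the controls was 1.09 for Dbp, 0.89 for Nfil3 and 0.19 for Nr1d2, with a median over all tested genes of 0.30. Among the Treg libraries it was 0.48 for Dbp, 0.46 for Bhlhe40, 0.42 for Nr1d1, 0.12 for Tef and 0.10 for Rora, with a median over all tested genes of 0.15. Control replicate 3 held the highest level of the 6 for 4 of the 9 members, Nfil3, Nr1d1, Rora and Bhlhe40, where it did so for 33.3% of all tested genes, and the lowest for Dbp. Control replicate 2 held the lowest level for 4 members, Tef, Hlf, Nr1d2 and Rora, and for 15.5% of all tested genes.

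The order of the members by level per length, from the median over 6 libraries, ran from Tef (19.8 RPKM, range 10.3 to 27.4) through Nr1d2 (17.4), Bhlhe40 (15.7), Nr1d1 (13.3), Dbp (10.5), Nfil3 (4.30), Bhlhe41 (3.93) and Rora (2.86) to Hlf (2.30, range 0.802 to 5.01). Neighbours in this order were compared within libraries. The order came from these same libraries and spans both groups, so the comparisons are not independent of the contrast that chose the members. Only Bhlhe41 and Rora stood in the same order in all 6 libraries, with a mean log2 difference of 0.51 ± 0.46 (SD, n = 6) and an exact two-sided sign-flip permutation p of 0.03125, the smallest that 6 libraries allow. Adjusted over the 8 neighbouring pairs this p was 0.25, and the other 7 pairs had adjusted p of 0.542 to 0.562 by the same exact permutation test. A single pair at the smallest p could not pass this adjustment. The order is one over both groups together: of the 8 pairs, Nr1d2 and Bhlhe40, Bhlhe40 and Nr1d1, Nr1d1 and Dbp, and Rora and Hlf each stood one way in all 3 controls and the other way in all 3 Treg libraries. By the control median Bhlhe40 (16.7 RPKM, range 14.8 to 24.5) ranked above Tef (15.5, range 10.3 to 16.4), and by the Treg median it ranked below Tef, Nr1d2, Dbp and Nr1d1 (10.3, range 9.63 to 17.2). Without Treg replicate 1 or 2 Bhlhe40 came first over the remaining libraries. Gene length also moved the order: with the median length of the protein-coding transcripts, Nfil3 came last and Dbp moved above Nr1d1.

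The rest of the clock was described from lists fixed without regard to how each gene moved, though with earlier results of these data known. Of the 16 core clock genes 15 were tested, and by edgeR 0 passed over all genes. At an unadjusted p under 0.05 there were 4, beside 16.5% of all tested genes. Npas2 had a log2 fold change of −1.84 ± 0.22 (edgeR adjusted p = 0.0871), Per3 1.47 ± 0.21 (edgeR adjusted p = 0.0914), Arntl −2.24 ± 0.37 (edgeR adjusted p = 0.0989) and Clock −0.80 ± 0.15 (edgeR adjusted p = 0.117). DESeq2 called the same 4. Arntl, Clock and Npas2 were lower in Treg, as were 1.97% of the genes it gave an adjusted p, and Per3 was higher, as were 1.93%. Without control replicate 3 edgeR called Clock and Npas2 lower, where 0.629% of all genes were, and Per2 and Per3 higher.

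Arntl, the partner of CLOCK and a target of REV-ERB, stood at 12.0, 11.3 and 13.2 CPM in the controls and 2.04, 4.22 and 1.48 CPM in the Treg libraries. Treg replicate 2, the Treg library with the highest Arntl, was also the Treg library with the lowest Dbp, Tef, Hlf and Nr1d2. The controls did not share this pattern: control replicate 2 had the lowest control Arntl and also the lowest Tef, Hlf and Nr1d2. Only Dbp was lowest in control replicate 3, where control Arntl was highest. Without control replicate 3 the log2 fold changes of Npas2, Per3, Arntl and Clock were −1.85, 1.52, −2.18 and −0.67. Among the other core clock genes, Per1, Cry1, Cry2 and Per2, which encode the repressors of the loop, had log2 fold changes of −0.22, −0.09, −0.31 and 0.68 over all libraries. Without control replicate 3 these were 0.68, 0.59, 0.28 and 1.42, so Per1, Cry1 and Cry2 turned sign. Over all libraries Ciart, Rorb, Btrc, Csnk1d and Csnk1e had 0.65, 1.08, 0.20, −0.11 and −0.01; without control replicate 3 Csnk1e had 0.15. Control replicate 3 held the highest level for 9 of the 15, among them Per1 at 161 CPM against 38.1 to 78.4 elsewhere. Fbxl21 had 4 to 18 counts and was not tested.

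**Figure D4:**
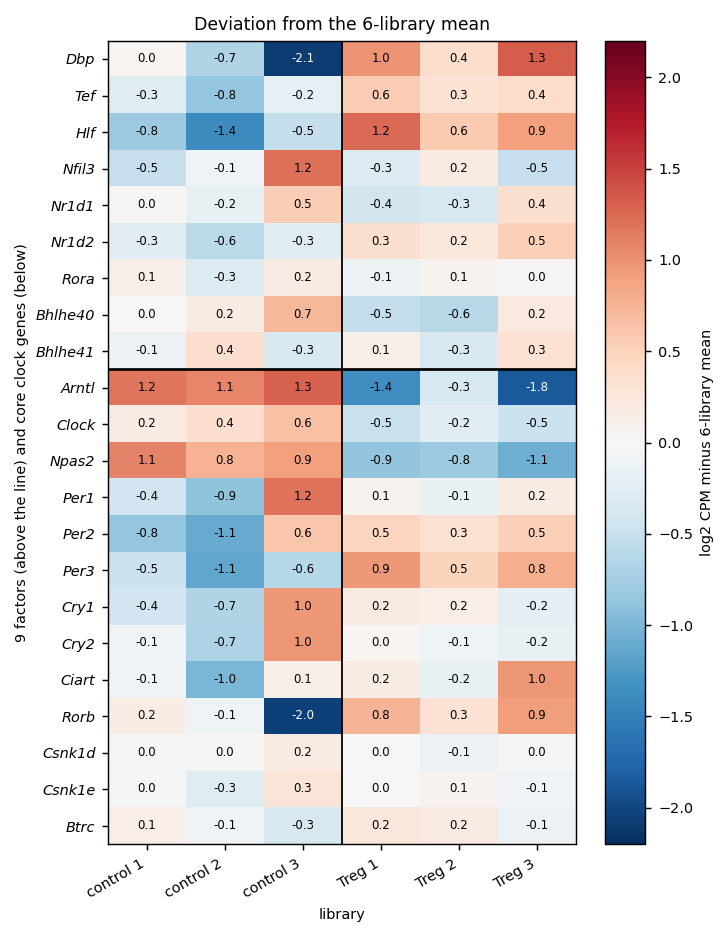
Deviation of log2 CPM from the mean over the 6 libraries (colour and printed value) for the 9 factors (above the horizontal line) and 13 tested core clock genes (below it) in each library (columns). Dbp lies 2.09 below its mean in control replicate 3, where Nfil3 lies 1.20 above, and Arntl lies above its mean in all 3 controls and below it in all 3 Treg libraries.

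Of the 5 tested corepressor genes through which REV-ERB acts, 0 passed by edgeR (0 at an unadjusted p under 0.05), and Tbl1x, Ncor1, Hdac3 and Tbl1xr1 had log2 fold changes of −0.34, 0.12, −0.08 and −0.07. Tbl1x lay lower in every Treg library than in every control, as 11.7% of all tested genes did, and Ncor1 higher, as 13.7% did. Without control replicate 3 the value of Tbl1x was −0.15 and that of Tbl1xr1 0.10. Of 14 tested output genes 0 passed by edgeR, and 4 had an unadjusted p under 0.05, beside 16.5% of all tested genes. Nampt, the NAD salvage enzyme, had 1.25 ± 0.25, Kcnip2, a potassium channel subunit, 1.41 ± 0.52, Coq10b 0.47 and Tspo −0.82. Of 12 glucocorticoid targets 0 passed by edgeR, and 6 had an unadjusted p under 0.05, beside 16.5% of all tested genes. Of the 12, 5 had a log2 fold change above 0 and 7 below, with a median of −0.13. The 4 of smallest p were Pik3r1 at 0.62, Zbtb16 at 0.89, Tsc22d3 at 0.67 and Cdkn1a at −1.85, which was −0.68 without control replicate 3. Of 14 immediate early genes 0 passed by edgeR, and 6 had an unadjusted p under 0.05, beside 16.5% of all tested genes. Of the 14, 8 had a log2 fold change above 0 and 6 below. The 4 of smallest p were Jun at 1.15, Egr1 at 0.95, Egr3 at 1.27 and Nr4a3 at 1.69, the last with overlapping groups. Treg replicate 3 held the highest level of 7 of the 14, beside 10.7% of all tested genes. In these lists DESeq2 called Nampt, Pik3r1, Jun, Egr1 and Nr4a3, all higher in Treg, beside 1.93% of the genes it gave an adjusted p. Without control replicate 3 edgeR called Tspo lower (beside 0.629% of all genes it tested) and Zbtb16 higher (beside 0.674%). On all 6 libraries limma-voom called 0. Over the 58 distinct tested genes of these lists and the core clock the median log2 fold change was 0.01. Control replicate 3, where Nfil3 and Bhlhe40 were highest, held the highest level of 8 of the 12 glucocorticoid targets, including Mt2 at 317 CPM against 24.5 to 39.2 elsewhere, beside 33.3% of all genes; the part of this in the members' values was not tested.

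The genes most like Dbp and Nfil3 across the 6 libraries were found by Pearson correlation of log2 CPM over 12651 other genes averaging 1 CPM or more; the libraries share their group and depth, so this is a description. For Dbp these were Zfp369 (r = 0.999), Fibin, Scn7a, Arhgef17 and Slco2b1 (r = 0.996 to 0.997). Fibin stood at 26.2, 21.6 and 11.2 CPM in the controls and 38.7, 32.7 and 46.6 in the Treg libraries, following Dbp's order with a smaller span. For Nfil3 they were Ramac (r = 0.996), Rgs2 (r = 0.993), Tmem199, Zfp64 and Tirap (r = 0.988 to 0.990). Rgs2, a regulator of G protein signalling, had 31.0 CPM for control replicate 3, where the other libraries had 11.2 to 16.3. Its r with Nfil3 was 0.965 over the 5 other libraries, a comparison chosen after seeing the data.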

How the data were processed

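RNA was measured in 6 left ventricular libraries, 3 labelled control and 3 Treg. The submitters' processing notes name GRCm38 and the tools featureCounts 2.0.6, HISAT2 2.1.0, Trimmomatic 0.39 and Cuffdiff 2.2.1, without their roles; how reads were counted, and on which annotation, is not stated in the labels. The authors deposited estimated counts per Ensembl gene, not normalized; 46.5% to 50.0% of values above 0 are fractional, so reads shared between genes may have been divided. A further 6 columns match no sample listed here and were not used.

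Counts were rounded to whole numbers. Symbols, coordinates and exon lengths came from GENCODE M21 (GRCm38), which matched 47310 of 47729 IDs, and promoters from RefSeq (GRCm38.p6). Genes were kept with filterByExpr, scaled by TMM and compared by edgeR 4.0.16 (R 4.3.3; robust quasi-likelihood fit, two-sided F test), with Benjamini-Hochberg adjustment at 0.05. SEs were derived from the log2 fold change and its F value. CPM are on TMM-scaled library sizes, and logs use a prior count of 0.5. The tests were checked on simulated independent counts without an outlying library, so the check does not cover a library such as control replicate 3. Alternatives were DESeq2 1.42.0, limma-voom (limma 3.58.1), other scalings, filters and lengths, a replicate block and omitted libraries.

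The members and lists were chosen with earlier results of these data known. All 9 members and the core clock genes are named, except 2 core clock genes whose values are not reported here, with up to 4 genes of smallest p in each other list and the 5 genes most like Dbp and Nfil3. Other genes (Sphk2, Thra, Gm43909, Myl7, Mt2) were named after their values were seen. A list's counts are adjusted over all genes.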

Additional observations from a re-analysis of the deposited data

How the results depend on the processing

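Each group had 3 libraries, at depths of 28937253 to 29979080 counts. The number of genes past the threshold, 0 by edgeR, stayed at 0 with limma-voom, RLE and upper-quartile scaling, a mean of at least 1 CPM and without mitochondrially encoded genes (2873 genes had an unadjusted p under 0.05). It was 650 with DESeq2, 38 without a low-count filter, 82 at an adjusted p of 0.1 and 119 without control replicate 3 and Treg replicate 3 together; leaving out 1 library gave 0 to 230, the latter without control replicate 3. The number of genes past the threshold in the 5 other lists (core clock, corepressors, output, glucocorticoid and immediate early genes), 0 by edgeR, was 9 with DESeq2, 2 without the filter, 3 at an adjusted p of 0.1, 4 without both libraries and 0 to 6 leaving out 1 library. The cause was not tested. Without control replicate 3, Per1 (0.68), Cry1 (0.59), Cry2 (0.28), Csnk1e (0.15) and Tbl1xr1 (0.10) changed sign in log2 fold change (chosen after seeing the data). The number of neighbouring members in 1 order in every library, 1 of 8, was 2 without division by length, 2 with transcript lengths (chosen after seeing the data) and 0 to 1 leaving out 1 library. The log2 fold change of Nfil3 was 0.24 without both libraries. The other members moved by less than their pooled within-group SD under every alternative run, while Rora and Bhlhe41, near 0, changed sign under some. For Dbp that SD was wide, at 0.84 log2 CPM, and its log2 fold change fell from 1.62 to 0.98 without both libraries. Deviations from group means had r of −0.15, −0.24 and 0.04 between same-numbered libraries 1, 2 and 3, and −0.23 to 0.31 between others. With 3 libraries per group these values cannot show whether the numbers pair the libraries. With the replicate block edgeR called 0 genes, and the log2 fold change of Dbp, Tef, Hlf and Nr1d2 was 1.75, 0.86, 1.82 and 0.74.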
